A study of Drosophila melanogaster with 6 samples.

Results

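The serpin genes of *Drosophila melanogaster* were examined at 2 adult ages, 10 and 40 days, with 3 samples at each. The labels give the tissue as female heads and the strain as Canton S, a common laboratory wild type, with no allele or transgene at either age. The members were the genes whose current symbol is Spn followed by a number, taken from array features (probe sets) annotated to exactly 1 gene. This gave 27 genes, all 27 with such a symbol in the RefSeq gene table, among 11804 genes with a probe set of their own. For each gene the probe set with the highest mean over the 6 arrays was used, and only *Spn42Da* had more than 1. Each sample was a pool of 75 to 100 heads of untreated flies as far as the labels say, and no mating status is given. Levels are deposited log2 values, so a difference of 1 is a doubling.

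Serpins are proteins that trap serine proteases: the protease cuts an exposed loop of the serpin and is then held in an inactive complex, so each serpin molecule works only once. In insects, secreted serpins act as brakes on the protease cascades of the blood that lead to Toll signalling and to melanization. A further set is made in the male accessory glands and passed to the female in seminal fluid. Some members have no known protease target.

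The samples carried transcripts that their label does not predict. All 9 male reproductive tract markers examined lay above a mean log2 level of 4, with a median of 14.77, while all 8 ovary markers with a probe set, among them *osk*, *bcd* and *vas*, lay near the lowest value of the table, 2.06. The 5 gut markers, which a head label does not predict either, had a median of 14.94. The yolk protein genes *Yp1* and *Yp3* had means of 7.29 and 8.86, and *Yp2* one of 3.61. The 6 head markers with a probe set, of 12 listed, had a lower median of 9.94. Among them the photoreceptor genes *Arr1* and *Arr2* stood at 14.14 ± 0.12 and 14.97 ± 0.07 (mean log2 ± SD, n = 6). The others were *trp* at 11.22, *elav* at 8.67, *repo* at 8.45 and *brp* at 4.94. Since the male tract and gut transcripts were present on all 6 arrays, no comparison could be repeated without them. The arrays had medians between 7.51 and 7.53, and correlated at 0.974 to 0.992 over the 10286 probe sets tested. Detection calls were not used here, and precision is limited by having 3 arrays per age.

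Of the 27 genes, 22 had a mean level of at least 4, the filter for testing, a share of 81.5% against 68% of all 15131 probe sets. Probe sets differ in how strongly they bind, so levels of different genes are given side by side and are not ranked as amounts of RNA. *Spn85F* and *Spn100A* stood at 2.06, the lowest value of the table, on every array. *Spn43Aa* was at 2.06 on 5 arrays and at 2.14 on the sixth, while *Spn42Db* ran from 2.73 to 2.98 and *Spn42De* from 2.90 to 3.76. These 5 genes had means under the filter and were not tested; without detection calls, their values do not show whether they were expressed.

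**Figure D1:**
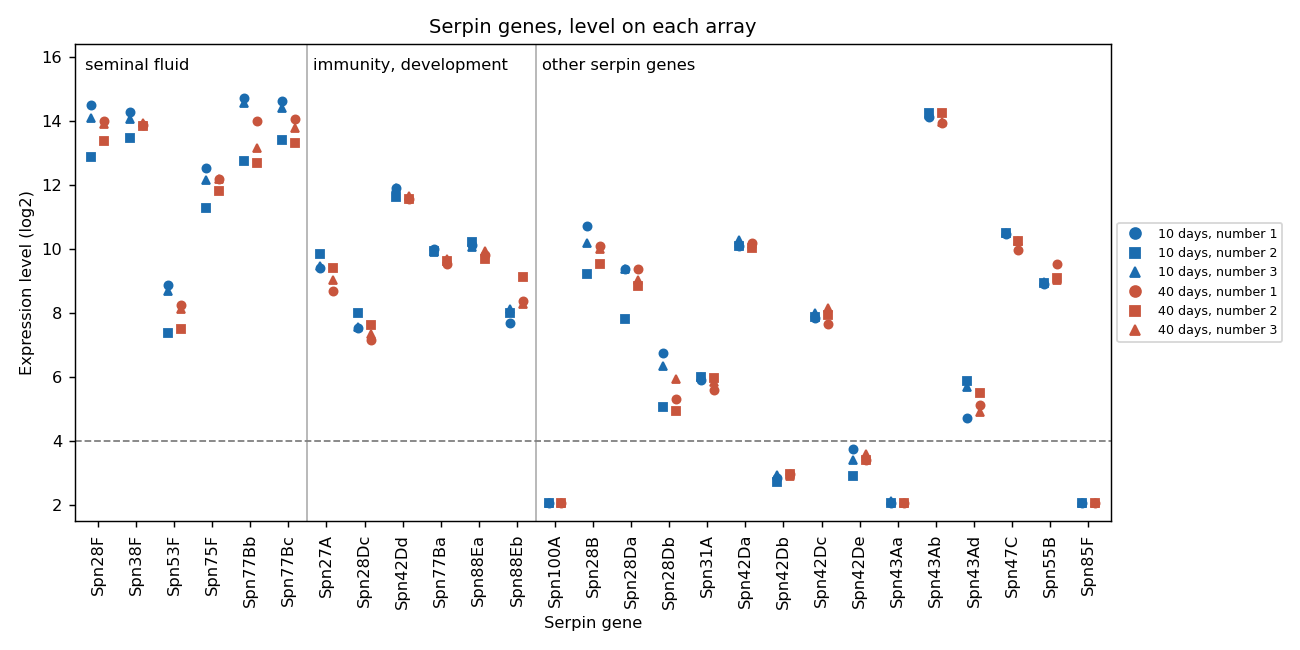
Log2 level of each of the 27 serpin genes on each array, with 10-day samples in blue and 40-day samples in red; the marker shape gives the replicate number and the dashed line is the filter at 4. The 6 seminal fluid serpins lay between 7.36 and 14.71, and in each of them the square of number 2 was the lowest at both ages.

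Serpins known from seminal fluid were expressed in all 6 samples. *Spn28F*, *Spn38F*, *Spn77Bb* and *Spn77Bc* had means of 13.78 ± 0.57, 13.91 ± 0.27, 13.64 ± 0.91 and 13.93 ± 0.53 (log2 ± SD, n = 6). *Spn75F* stood at 12.02 ± 0.43 and *Spn53F* at 8.13 ± 0.61. All 6 encode proteins reported from the male accessory gland or the ejaculate. A seventh serpin of that kind carries the symbol *Acp76A*, formerly *Spn76A*, and so fell outside the rule; it had a mean of 13.91 ± 0.89.

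The seminal fluid serpins differed more between replicate numbers than between ages. *Spn77Bb* was at 14.71, 12.74 and 14.57 in the 10-day samples of numbers 1, 2 and 3, and at 13.98, 12.67 and 13.16 in the 40-day samples. Number 2 was the lowest at both ages, and the ages overlapped. *Spn77Bc*, its neighbour on the chromosome, gave 14.61, 13.40 and 14.41 at 10 days and 14.05, 13.31 and 13.77 at 40 days, with the same order of samples. *Spn28F* read 14.48, 12.87 and 14.09 at 10 days and 13.98, 13.36 and 13.89 at 40 days. In *Spn53F* the 10-day values were 8.86, 7.36 and 8.67 and the 40-day values 8.25, 7.50 and 8.12. *Spn75F* had 12.53, 11.27 and 12.15, then 12.17, 11.82 and 12.20. *Spn38F* had 14.28, 13.46 and 14.06 at 10 days, but at 40 days its 3 samples lay close together, at 13.88, 13.85 and 13.95. The 10-day sample of number 2 was the lowest of all 6 in 4 of these 6 genes, and in *Spn77Bb* and *Spn77Bc* the 40-day sample of number 2 was.

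Samples of number 2 stood below the others by a median of 0.93 log2 over the 6 seminal fluid serpins, taken as their mean minus that of numbers 1 and 3. The shift ran from -1.40 in *Spn77Bb* to -0.39 in *Spn38F*. *Acp76A* had one of -1.47. Over all 10286 probe sets tested the median was 0.00, and 18.9% had number 2 lowest at both ages, as did 11 of the 22 serpin genes tested. A shift of -0.5 or lower was found in 5 of the 6 seminal fluid serpins and in 4.61% of all probe sets. Of 23 other seminal fluid genes measured, such as the sex peptide gene *SP*, 15 had number 2 lowest at both ages, with a median shift of -0.29 and a range from -0.86 to 0.13. The labels do not say what a replicate number marks, and no test was run between the numbers.

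**Figure D2:**
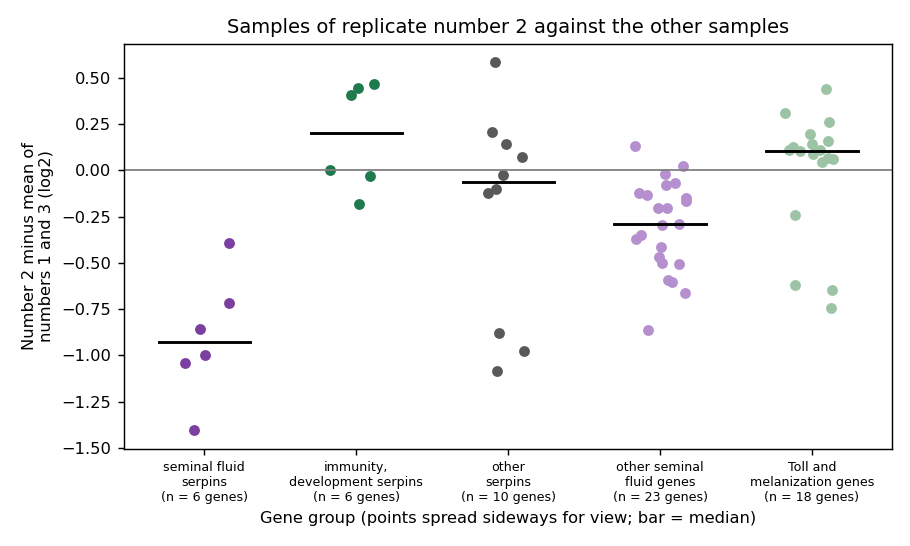
Mean log2 level of the samples of number 2 minus the mean of numbers 1 and 3, 1 point per gene tested, with a bar at the median of each group. The seminal fluid serpins lay between -1.40 and -0.39 and the serpins of immunity and development between -0.18 and 0.46.

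Of the serpins tested outside the seminal fluid list, 5 also had number 2 lowest at both ages. In *Spn42Da* and *Spn42Dd* the shift was small, at -0.12 and -0.18, and it was larger in the other 3. *Spn28B* gave 10.71, 9.21 and 10.18 at 10 days and 10.08, 9.52 and 10.00 at 40 days. The adjacent genes *Spn28Da* and *Spn28Db* had shifts of number 2 of -0.97 and -1.09, against -0.88 in *Spn28B*. *Spn28Da* read 9.39, 7.80 and 9.37 at 10 days and 9.38, 8.84 and 9.04 at 40 days, and *Spn28Db* 6.74, 5.07 and 6.36, then 5.32, 4.93 and 5.94. These 3 genes were picked out after their values were seen. Gut proteases were also low in number 2, with a median shift of -0.71 over 5 genes and number 2 lowest at both ages in all 5. The shift was uneven, from -1.59 in *Jon25Bi* to -0.17 in *betaTry* and -0.15 in *alphaTry*. The summed linear level of those 5 gut genes ran from 16.70 to 17.20 (log2 of the sum) at 10 days and from 16.79 to 17.36 at 40 days; its part in the serpin values was not tested.

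No serpin gene passed the test between 40 and 10 days. The samples were compared in pairs of the same replicate number, by limma with the number as a block and Benjamini-Hochberg adjustment over all probe sets tested, at a threshold of 0.05. Of all probe sets, 1.92% were called, and 0 of the 22 serpin genes. Without the block 0.34% were called and again 0 serpin genes, and 5 serpin genes had an unadjusted p under 0.05, against 13.1% of all probe sets. With the block, 9 of the 22 genes had one, a share of 40.9% against 25.1% of all probe sets. Of these, 8 were lower and 1 higher at 40 days, against 12.1% lower and 12.9% higher of all probe sets. The 22 genes had a median log2 difference (40 minus 10 days) of -0.19, with 18 below 0, where all probe sets tested had a median of 0.01 and 48.2% below 0. In pools of tissue, fewer cells of a type and less RNA per cell cannot be told apart.

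**Figure D3:**
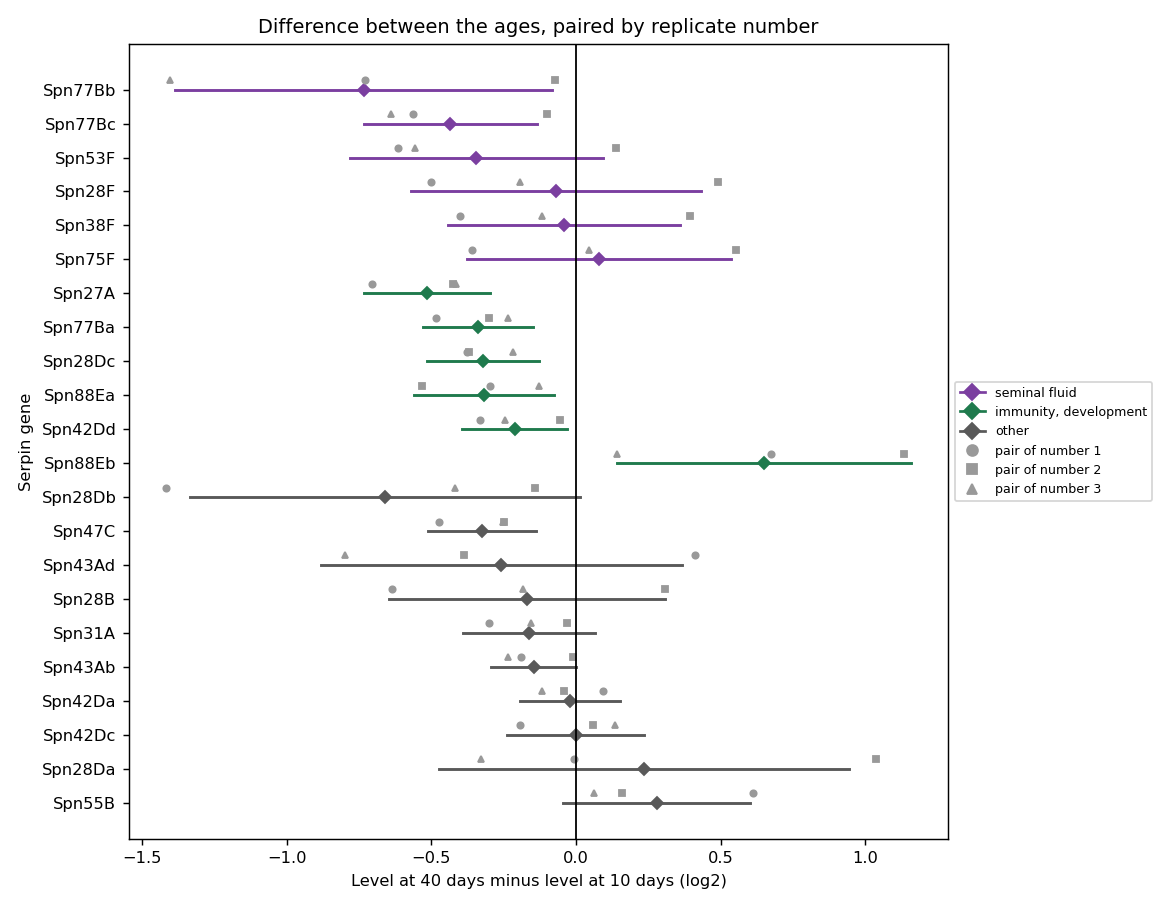
Log2 difference between 40 and 10 days for the 22 serpin genes tested, with diamonds for the limma estimate with the block, bars for its 95% interval and small grey markers for the difference within each pair. Intervals of 9 genes leave out 0, 8 of them below it, and none of these genes passed after adjustment.

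The median standard error of the seminal fluid serpins was 0.17 log2 with the block and 0.39 without. Over all probe sets the medians were 0.08 and 0.10. *Spn77Bb* differed by -0.73 ± 0.25 (log2 ± SE; 95% interval -1.39 to -0.08; limma adjusted p = 0.171, and 0.634 without the block). It was -0.40 without number 3 and -1.07 without number 2, both with the block. *Spn77Bc* differed by -0.43 ± 0.11 (-0.73 to -0.14; adjusted p = 0.121). Both were lower at 40 days in all 3 pairs, as were 23.2% of all probe sets. Without both samples of number 2, *Spn77Bc* passed the test with the block, at -0.60 (adjusted p = 0.0270). Without the block as well it did not, at adjusted p = 0.355.

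The other seminal fluid serpins had no common direction over the pairs. *Spn53F* gave -0.34 (95% interval -0.78 to 0.09), *Spn28F* -0.07 (-0.57 to 0.43), *Spn38F* -0.04 (-0.44 to 0.36) and *Spn75F* 0.08 (-0.38 to 0.54). In number 1 all 6 seminal fluid serpins were lower at 40 days, with a median of -0.53, and in number 3 the median was -0.38 with 5 of 6 lower. In number 2 the median was 0.27, with 4 of the 6 higher. Each of the 4 intervals includes 0, so neither a rise nor a fall was shown. *Acp76A* gave -0.22 (-1.13 to 0.69).

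Other seminal fluid genes had values mostly on the other side of 0. Of 23 measured, 18 were above 0 and 5 below, with a median of 0.05 (40 minus 10 days), and 0 passed the test by limma, with 4 at an unadjusted p under 0.05, or 17.4%, below the 25.1% of all probe sets. The 4 with the smallest adjusted p were the lectin genes *lectin-46Ca* and *lectin-46Cb*, whose products act in binding sex peptide to stored sperm, at 0.33 and 0.24, with *SP* at 0.17 and *EbpII*, an ejaculatory bulb protein gene, at 0.12 (adjusted p = 0.110 to 0.167). In number 2, 22 of the 23 were higher at 40 days, and in number 1 only 6 were. Whether serpins and other seminal fluid genes differ in this was not tested. The summed linear level of the 23 genes ran from 18.56 to 19.06 (log2 of the sum) at 10 days and from 18.82 to 18.98 at 40 days. The 9 male reproductive tract markers share *Acp36DE*, *Acp53Ea*, *Acp98AB* and *Mst57Da* with the 23 genes, so the lists are not independent. Among the 9 markers only *dj* passed the test, lower at 40 days in all 3 pairs. Its difference was -1.18 ± 0.08 (log2 ± SE), with a limma adjusted p of 0.0123, and of 0.00347 without the block. The remaining 8 markers lay above 0.

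Serpins of immunity and development had differences that kept 1 direction in every pair. All 6 had an unadjusted p under 0.05 with the block, against 25.1% of all probe sets, 5 lower and 1 higher at 40 days (12.1% and 12.9% of all), and none passed after adjustment (adjusted p = 0.0654 to 0.164). Without the block 4 of the 6 had one, against 13.1% of all probe sets. *Spn27A*, a brake on melanization that also restrains Easter, the protease of the embryo's dorsoventral axis, was at 9.40, 9.83 and 9.46 in numbers 1, 2 and 3 at 10 days and at 8.70, 9.41 and 9.04 at 40 days. The groups overlapped because the 40-day sample of number 2 (9.41) lay just above the 10-day sample of number 1 (9.40). Its difference was -0.51 ± 0.08, or 1.43 times lower at 40 days (95% interval -0.73 to -0.30; adjusted p = 0.0654, and 0.374 without the block). It passed under 2 alternatives, with a filter at 6 (0.0463) and with robust moderation of the variances (0.0393).

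*Spn77Ba*, which restrains melanization in the airways, read 10.01, 9.93 and 9.92 at 10 days and 9.53, 9.63 and 9.68 at 40 days, so that all 40-day samples lay below all 10-day samples. It differed by -0.34 ± 0.07 (adjusted p = 0.0910, and 0.181 without the block). *Spn28Dc*, a regulator of phenoloxidase activation, gave 7.53, 7.99 and 7.56, then 7.15, 7.62 and 7.34. As in *Spn27A*, number 2 was the highest at both ages and the groups overlapped. The difference was -0.32 ± 0.07 (adjusted p = 0.101). *Spn42Dd*, which acts in the Toll response to fungi, had 11.90, 11.61 and 11.91, then 11.57, 11.55 and 11.66, a difference of -0.21 ± 0.07 (adjusted p = 0.164).

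The neighbouring genes *Spn88Ea* and *Spn88Eb* lay on opposite sides of 0. *Spn88Ea*, a negative regulator of Toll signalling that is also needed for wing expansion, read 10.12, 10.22 and 10.07 at 10 days and 9.83, 9.69 and 9.94 at 40 days. *Spn88Eb* read 7.69, 8.00 and 8.14, then 8.37, 9.13 and 8.28. In both genes the ages did not overlap, in opposite directions. Their differences were -0.32 ± 0.09 and 0.65 ± 0.20 (log2 ± SE; adjusted p = 0.138 and 0.144, and 0.269 and 0.367 without the block). The rise within pairs of *Spn88Eb* ranged from 0.14 in number 3 to 1.13 in number 2.

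Non-overlap of the ages was seen in 5 of the 22 serpin genes, 3 lower and 2 higher at 40 days, or 22.7%, near the 19.8% of all probe sets, of which 8.42% were lower and 11.4% higher. Besides *Spn77Ba*, *Spn88Ea* and *Spn88Eb* these were *Spn47C* and *Spn55B*. *Spn47C* was at 10.45, 10.48 and 10.49 at 10 days and at 9.98, 10.24 and 10.24 at 40 days, a difference of -0.33 ± 0.07 (adjusted p = 0.0935, and 0.269 without the block). *Spn55B* was at 8.90, 8.92 and 8.96, then 9.52, 9.08 and 9.03, a difference of 0.28 ± 0.12 (limma adjusted p = 0.245). Within its pairs the difference was 0.61 in number 1 and only 0.06 in number 3. All 3 pairs were lower at 40 days in 11 of the 22 genes, against 23.2% of all probe sets, and higher in 2, against 26.1%.

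**Figure D4:**
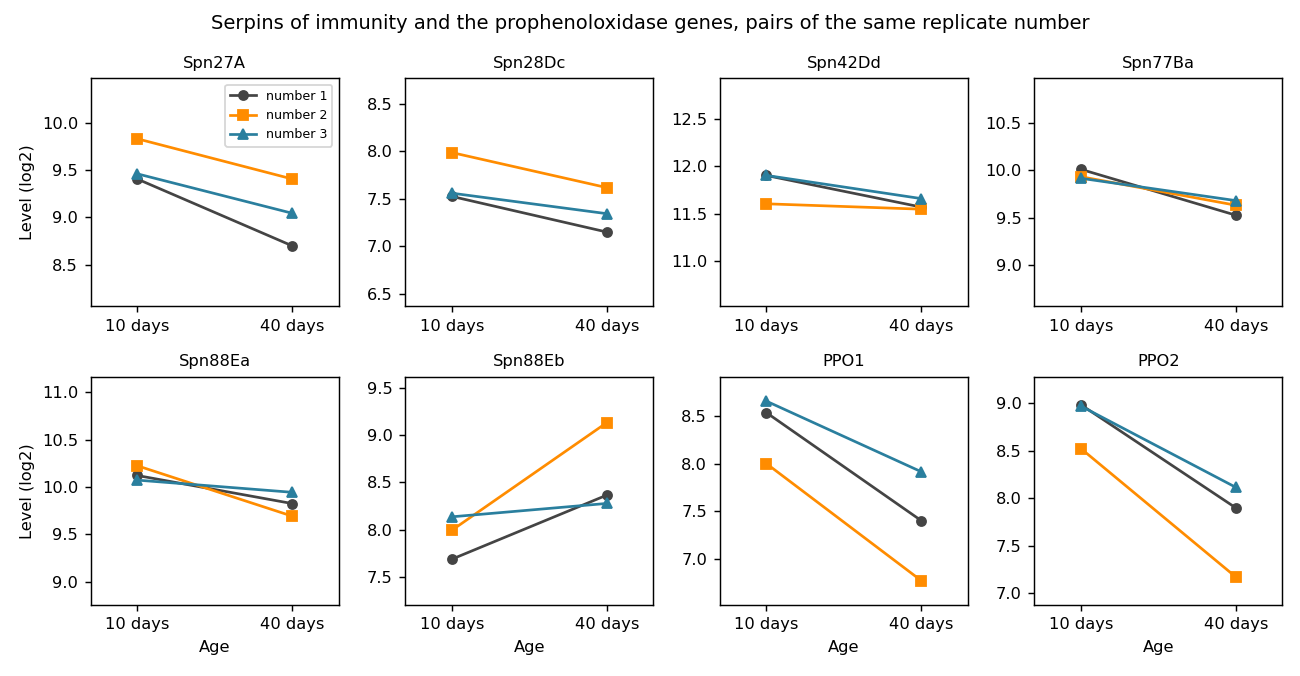
Log2 levels of 6 serpin genes of immunity and development and of the prophenoloxidase genes *PPO1* and *PPO2*, with lines joining samples of the same replicate number, all panels to the same scale. In every pair 5 of the serpin genes were lower and *Spn88Eb* was higher at 40 days, and both prophenoloxidase genes were lower.

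The remaining serpin genes had differences between -0.66 and 0.23. *Spn28Db* gave -0.66, with an interval of -1.33 to 0.01, and *Spn28Da* gave 0.23. Within the pairs of *Spn28Da* the difference was 1.04 in number 2, while numbers 1 and 3 gave -0.008 and -0.33. *Spn43Ab*, at 14.12 ± 0.14 (n = 6), gave -0.15 (-0.29 to 0.00; adjusted p = 0.201). *Spn43Ad* gave -0.26, *Spn28B* -0.17 and *Spn31A* -0.16, each with an interval across 0. *Spn42Dc* had the same mean at both ages, 7.91, with an interval of -0.24 to 0.24. *Spn42Da*, whose products inhibit furin-like proteases of the secretory pathway, had levels of 10.15 and 9.83 on its 2 probe sets. The brighter gave -0.02 (adjusted p = 0.866) and the dimmer -0.25 (adjusted p = 0.109), so the probe sets of this gene, which has several transcripts, did not give the same difference.

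Some of the serpin genes lie next to each other. Runs of adjacent protein-coding serpin genes in the RefSeq table hold the 5 genes from *Spn42Da* to *Spn42De*, of which 3 were tested, the trio *Spn77Ba*, *Spn77Bb* and *Spn77Bc*, the trio *Spn43Ab*, *Spn43Ad* and *nec*, and the pairs *Spn28Da* with *Spn28Db* and *Spn88Ea* with *Spn88Eb*. In the run of *Spn77Ba*, the samples of number 2 stood 1.40 and 0.86 lower in *Spn77Bb* and *Spn77Bc*, against a shift of -0.0012 in *Spn77Ba*. The gene *nec*, formerly *Spn43Ac*, encodes a serpin that holds back the Persephone-dependent branch of Toll activation. It was at 11.47, 11.64 and 11.70 at 10 days and at 11.22, 11.44 and 11.21 at 40 days, all lower, with a difference of -0.31 ± 0.07 (adjusted p = 0.103).

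Among the cascades that these serpins restrain, the prophenoloxidase genes *PPO1* and *PPO2* were lower at 40 days and passed the test only with the block. Of 24 Toll and melanization genes listed, 20 had a probe set and 18 were tested. The list includes the serpin gene *nec*, so it does not hold serpin targets alone. With the block 2 were lower and 0 higher, or 11.1%, against 1.3% and 0.622% of all probe sets. *PPO2* was at 8.99, 8.52 and 8.97 at 10 days and at 7.90, 7.17 and 8.12 at 40 days, and *PPO1* at 8.54, 8.00 and 8.66, then 7.40, 6.77 and 7.92. Both encode the melanin-forming enzyme precursor of crystal cells, a blood cell type. They fell by 1.10 ± 0.11 and 1.04 ± 0.12 on the log2 scale, or 2.14 and 2.06 times (limma adjusted p = 0.0314 and 0.0367), with no overlap between the ages. Number 2 was the lowest at both ages in both genes, with shifts of -0.65 in *PPO2* and -0.74 in *PPO1*. Without the block they did not pass (0.233 and 0.310), nor did they with any single sample left out as well. With no filter on dim probe sets they did not pass either (0.203 and 0.205). Without number 1 the adjusted p with the block was 0.209 and 0.219, and without number 3 it was 0.0633 and 0.0566. Without number 2, *PPO2* passed at 0.0433 and *PPO1* gave 0.0663.

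The next smallest adjusted p belonged to *Sp7*, a protease of prophenoloxidase activation, at -0.37 ± 0.07 (adjusted p = 0.0781), and *GNBP3*, a sensor of fungal glucans, at -0.31 ± 0.06 (0.0848). Over the 18 genes, *nec* included, the median difference was -0.15, and 15 genes lay below 0, against 48.2% of all probe sets. An unadjusted p under 0.05 was found in 11 of the 18, or 61.1%, against 25.1% of all. Of these 9 were lower and 2 higher, against 12.1% and 12.9%. Of 7 hemocyte markers, all above 4, 5 lay below 0 and 2 above, with a median difference of -0.16. *PPO1* and *PPO2* were the called ones. The other 5 were *NimC1* at -0.23, *srp* at -0.16, *SPARC* at -0.11, *Col4a1* at 0.02 and *Hml* at 0.11. The summed linear level of the 7 ran from 13.80 to 13.98 (log2 of the sum) at 10 days and from 13.70 to 13.79 at 40 days. *SPARC*, with a mean of 13.3, made up most of this sum, so it says little about the dimmer markers. The 8 fat body markers, of which *Fbp1* and *Yp2* lay under 4, ran from 17.15 to 17.27 at 10 days and from 17.13 to 17.23 at 40 days on the same scale. *Cyp4g1*, with a mean of 16.07, made up the largest part of that sum. Of the 6 fat body markers tested, 3 lay above 0 and 3 below. The yolk protein gene *Yp1* gave 2.01 ± 0.63 (limma adjusted p = 0.154, and 0.403 without the block). Its pairs were uneven, at 0.18, 2.33 and 3.52 in numbers 1, 2 and 3. The ages did not overlap, but the highest 10-day value, 7.79, lay just below the lowest 40-day value, 7.89. *Yp3* gave 0.76 ± 0.31, higher at 40 days in all 3 pairs (0.214), and *Tsf1* gave -0.29 ± 0.06, lower in all 3 (0.0920). The part of either cell type in the serpin values was not tested.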

How the data were processed

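The deposited values are log2 expression values per probe set of an Affymetrix fly array, made by the authors with GCRMA (background correction, normalization between arrays, summary per probe set), per the submitters' processing notes; its version is not given in the sources used here. The scale was read from the values. RNA was amplified from 150 ng per sample, per the labels' protocols.

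Of 15131 probe sets, 13333 had 1 gene, 390 several and 1408 none; 13250 of the first matched the RefSeq table (Release 6 plus ISO1 MT) by Entrez ID. Values were used as deposited. Probe sets with a mean of at least 4 (10286) were fitted with limma 3.58.1 in R 4.3.3 (lmFit, eBayes with a trend, two-sided) and Benjamini-Hochberg adjustment over all of them; tables and plots used Python, pandas 2.3.3 and matplotlib 3.10.9. The replicate number was a block, since the comparison was set up as paired; the labels number the replicates and do not say that they pair samples. After age means were removed, same-numbered samples correlated at 0.707, 0.772 and 0.353, all above 0.1. The labels call the samples independent biological replicates.

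On simulated data with 10286 probe sets, the blocked test called 75 of 100 changes of 1 log2 and 89 of 100 of 2, with 5 false calls. The simulation had replicate effects built in, and spreads were shuffled over probe sets without regard to level. No smaller change was simulated, so it does not show how often differences of the size seen in the serpins, -0.73 to 0.65, would be called. Members and lists were chosen with earlier results of these data known. Named were serpins called with or without the block and all of the seminal fluid and immunity lists. Serpins with the 5 largest differences in each direction were named too. Of the Toll and melanization list and the other seminal fluid genes, called genes and up to 4 with the smallest adjusted p were named. Other names, such as *nec*, *Acp76A*, *dj* and the hemocyte markers, were chosen after their values were seen. Alternatives were the fit without the block, array weights, no filter or one at 6, robust eBayes, eBayes with no trend, quantile normalization, arrays centred on their medians, values floored at 4, the mean of a gene's probe sets, and samples left out in turn.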

Additional observations from a re-analysis of the deposited data

How the results depend on the processing

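The median difference of the serpin genes stayed between -0.29 and -0.14 under all 20 alternatives. With no replicate block 35 probe sets passed and 4 serpin genes were lower at an unadjusted p under 0.05, against 198 and 8 with it; the block changed the call of no serpin gene. With no filter on dim probe sets, limma called 0 probe sets, with 4 serpin genes lower at an unadjusted p under 0.05. Without a trend 119 probe sets passed, and with robust eBayes 395. The number of serpin genes past the threshold was 1 with a filter at 6 and with robust eBayes (*Spn27A* in both), and 0 or 1 with a replicate number left out, the 1 being *Spn77Bc* without number 2. With samples left out, the number of probe sets called ran from 7 to 118, and that of serpin genes lower at an unadjusted p under 0.05 from 3 to 12. Without both samples of number 2 and without the block, an alternative chosen after the data were seen, 17 probe sets and 0 serpin genes passed, and *Spn28Da* and *Spn75F* gave -0.17 and -0.16. Of 437 values of single genes under alternatives, 28 turned their direction, in 8 genes, none of them called. With array weights *Spn28F*, *Spn38F* and *Spn42Dc* gave 0.039, 0.041 and 0.00064; *Spn42Dc* gave 0.00012 with arrays centred on their medians and 0.013 after quantile normalization. With samples left out, with and without the block, the difference ran from -0.58 to 0.17 in *Spn28B*, from -0.54 to 0.27 in *Spn28F*, from -0.28 to 0.14 in *Spn38F*, from -0.12 to 0.12 in *Spn42Dc*, from -0.079 to 0.040 in *Spn42Da*, from -0.62 to 0.012 in *Spn43Ad*, from -0.29 to 0.52 in *Spn28Da* and from -0.28 to 0.35 in *Spn75F*. Without turning, it ran from -1.37 to -0.38 in *Spn77Bb*, from -0.80 to -0.20 in *Spn77Bc*, from -0.81 to -0.062 in *Spn53F*, from -1.15 to -0.28 in *Spn28Db*, from 0.38 to 0.91 in *Spn88Eb* and from 0.11 to 0.39 in *Spn55B*. The causes were not tested. With 3 samples per age, small differences can be missed.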
